A study of Mus musculus with 6 samples.

Results

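The interferon response genes measured here were 86 probe sets of 62 genes, out of 22690 probe sets on the array and 12393 genes named by a probe set of their own. They were taken by gene symbol alone: interferon receptors, the STAT and IRF transcription factors, cytosolic RNA sensors, and the interferon-induced effectors of the Ifit, Oas, Ifi, Ifitm, Isg, Gbp, Irg and Mx families with Usp18 and Rsad2. The symbol rule itself uses no intensity, but the members were chosen with earlier results of these data known. The groups were 3 cecal tumors and 3 duodenal ones, with 1 array for each tumor. Tumors of the same site came from different mice. The labels state no pairing, and whether a cecal and a duodenal tumor came from the same mouse is not known here. All mice carried Apc1638N, an allele of the tumor suppressor Apc that predisposes to intestinal tumors. All are given as Rb1 deficient, Rb1 being the retinoblastoma gene that restrains the cell cycle. The labels give neither the way Rb1 was removed nor the age of the mice. Per the labels, duodenal samples took in tumors of the pylorus, where the stomach opens into the gut. Normal mucosa and Rb1-intact tumors were not analysed here, and the sites also differ as normal tissues.

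Interferons are cytokines, and those of type I are released by cells on sensing viral or bacterial nucleic acid. Type I interferons signal through Ifnar1 and Ifnar2 to a complex that holds Stat2 and Irf9 and binds the interferon-stimulated response element, ISRE; interferon gamma signals through Ifngr1 and Ifngr2 and acts on genes with a gamma-activated site, GAS. In the gut, commensal microbes and resident immune cells keep a part of this program active in the absence of infection. Isg15 and Ddx58 had no probe set among the members and are not analysed here.

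Marker genes of each site were read from lists chosen with earlier results of these data known. Of 7 tested genes of cecal epithelium all 7 were higher in cecal tumors, and all 5 tested genes of duodenal epithelium and all 9 of gastric and pyloric epithelium were lower. Over all 8129 tested genes, 5.7% were higher and 4.75% lower. Most of the markers were under the filter level given below in all tumors of 1 site, so their direction largely follows from the filter. Retnlb, Slc26a3, Tff1 and Ctse were above it in tumors of both sites and differed in the same directions. Tumor 2 of each site came from a female mouse and the other 4 from males, as read from the Y-linked Eif2s3y. Values are linear probe set intensities that the authors scaled to a common level, and the median array intensity ranged from 164.6 to 181.8. A probe set was tested when it was above its array's 40th percentile (an intensity of 92.36 to 100.6) on at least 3 arrays. That left 48 member probe sets of 39 genes. The other 38 probe sets stayed at or below 146.1 on every array, and 31 of them were under the percentile on all 6. Because the RNA came from whole tumors, more RNA per cell cannot be told apart from more cells of a type that makes it.

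Of the 48 tested probe sets, 7 were higher in cecal tumors and 0 were lower (limma, adjusted p under 0.05), which is 14.6% of them. Over all 13866 tested probe sets, 5.24% were higher and 4.07% lower. At an unadjusted p under 0.05, 9 member probe sets were higher and 3 lower, against 11.5% and 11.8% of all tested probe sets. The 7 were Irf7, Irf8, Irf1, Ifngr1, Ifit1, Ifi47 and Ifih1, each with all cecal values above all duodenal values. Such separation was seen in 12 of the 48 members with the cecal tumors higher and in 3 with them lower, against 13.8% and 15.7% of all tested probe sets. With the replicate number as a block the same test called 7 higher and 1 lower, against 6.12% and 5.21% of all tested probe sets. Ifit1 was dim in all duodenal tumors, so its direction was largely set by the filter; among the 47 tested members that were not dim at a whole site, 6 were higher, or 12.8%, and 0 lower, against 4.55% and 3.2% of all such probe sets. The members as a whole were centred near 0. Their median log2 fold was 0.03, against -0.04 over all tested probe sets, and 25 had a positive and 23 a negative fold. The count of higher probe sets was 1 (Irf7) without cecal tumor 1, 4 without cecal tumor 2 and 4 without cecal tumor 3. All tested probe sets called higher also became fewer then (2.03%, 1.95% and 4.06%). With the 4 arrays of male mice alone, 2 of 50 tested members, Ifih1 and Irf1, were called higher, against 2.45% of all 14005 probe sets tested there.

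**Figure D1:**
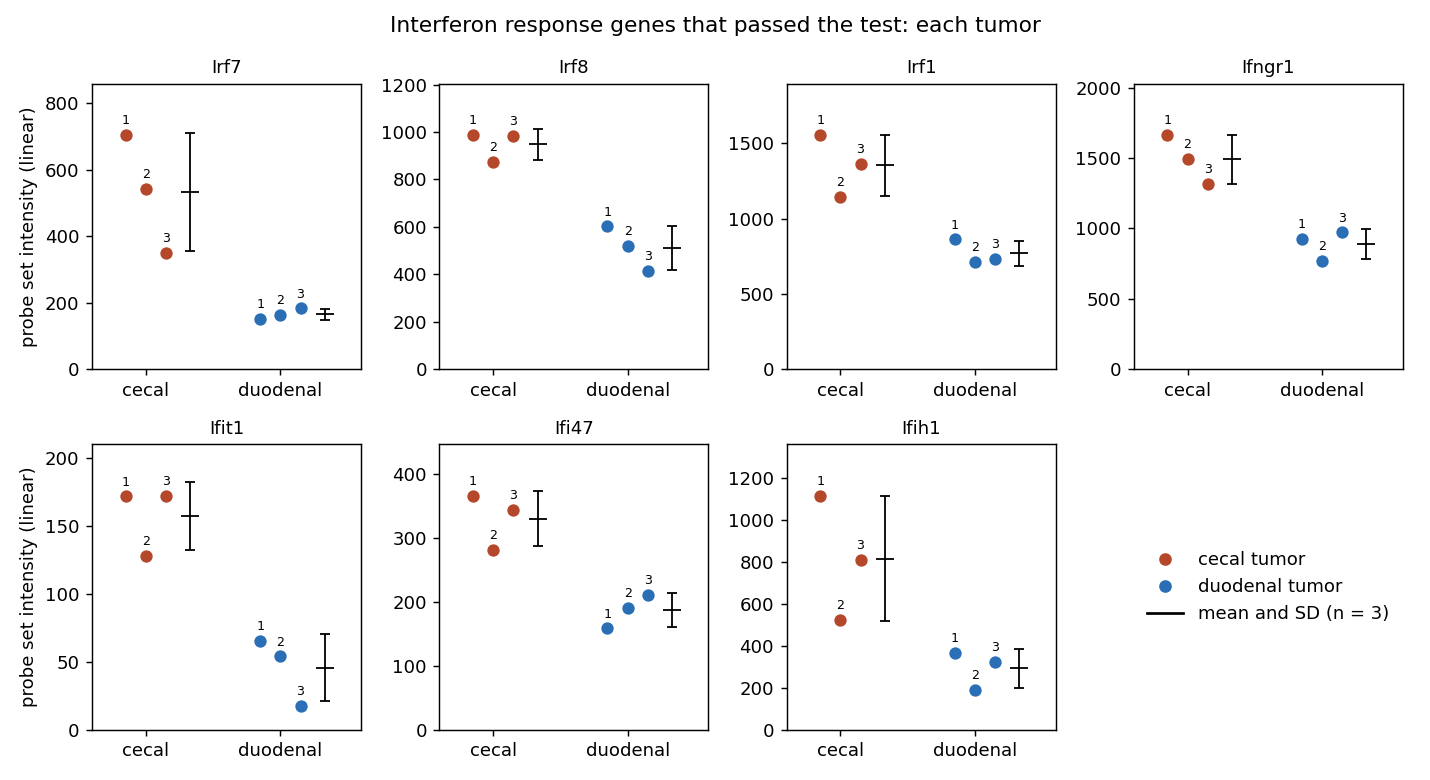
Linear probe set intensity of the 7 interferon response probe sets that passed the test, in each cecal and each duodenal tumor, numbered by replicate, with the mean and SD of 3 tumors beside the points. In every panel the lowest cecal tumor lies above the highest duodenal tumor.

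The receptors were tested with 5 probe sets, all with a positive fold, and 1 passed. Ifngr1, the ligand-binding chain of the interferon gamma receptor, had intensities of 1662.3, 1492.3 and 1315.8 in cecal tumors 1 to 3, against 923.7, 768.8 and 970.3 in duodenal tumors 1 to 3. The groups were apart by more than their spread, 1490 ± 173 in cecal and 888 ± 106 in duodenal tumors (SD, n = 3 each). This was 1.67-fold (log2 difference 0.74 with a standard error of 0.14, adjusted p = 0.0168). The call was lost without cecal tumor 1 (adjusted p = 0.0698), cecal tumor 2 (0.0734) or duodenal tumor 1 (0.0544) and with male arrays alone (0.114). Ifngr2, the signaling chain of the same receptor, had 1010.5, 1054.9 and 1229.5 in cecal tumors and 760.6, 902.2 and 811.2 in duodenal tumors. Its groups did not overlap, but it did not pass (log2 difference 0.40 with a standard error of 0.13, adjusted p = 0.108). A second Ifngr2 probe set also had no overlap and did not pass (log2 difference 0.69 with a standard error of 0.34, adjusted p = 0.273). The type I receptor chains overlapped between the sites. Ifnar1 averaged 337 ± 40.1 in cecal and 291 ± 35.1 in duodenal tumors (log2 fold 0.20, adjusted p = 0.493). Ifnar2 averaged 226 ± 31.6 in cecal and 217 ± 29.2 in duodenal tumors (log2 fold 0.06, adjusted p = 0.884).

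None of the 8 tested STAT probe sets passed (limma; 0 higher and 1 lower at an unadjusted p under 0.05), and their median log2 fold was -0.06. Stat2, a component of the ISRE-binding complex, had 199.8, 158.3 and 188.8 in cecal tumors and 147, 134.7 and 157.1 in duodenal tumors. Its groups did not overlap, by a narrow margin, and its log2 fold of 0.29 did not pass (adjusted p = 0.349). Stat3, which relays interleukin 6 family signals, had 1468.5, 1669.7 and 1951.9 in cecal tumors and 1719.7, 1457 and 2157.7 in duodenal tumors, with full overlap (log2 fold -0.06, adjusted p = 0.882). Stat5a, a mediator of cytokine and growth hormone signals, had 69.6, 68 and 103.4 in cecal tumors and 135.7, 103.7 and 148.7 in duodenal tumors. The groups were separated by 0.3 intensity units, and the log2 fold of -0.60 ± 0.23 (SE) did not pass (adjusted p = 0.153). Another probe set of Stat5a, below the filter and so without a test, stood at 51.1, 72.5 and 62.8 in cecal tumors and 98.4, 115 and 124.8 in duodenal tumors, and its groups did not overlap either. Since all its cecal values were under the percentile, it was at least 1.167-fold lower in cecal tumors. Both tested probe sets of Stat6, the interleukin 4 mediator, had log2 folds close to 0 (0.06 and -0.05). Stat4 stayed under the percentile on all 6 arrays.

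The IRF factors held 3 of the 7 calls, from 11 tested probe sets of 8 genes. Irf7, the factor that amplifies type I interferon production and is itself interferon-induced, had 704.7, 541.7 and 350.5 in cecal tumors, against 150, 161.9 and 182.2 in duodenal tumors. The cecal tumors spread widely and the duodenal ones lay close together, with no overlap. Cecal tumors averaged 532 ± 177 and duodenal tumors 165 ± 16.3 (SD, n = 3 each), 2.93-fold (log2 difference 1.55 with a standard error of 0.24, adjusted p = 0.00652). This call held without any single array (adjusted p up to 0.0358) and missed the threshold with male arrays alone (0.0523).

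Irf8, a factor of myeloid and B cells that also responds to interferon gamma, had 987.4, 873.9 and 983.6 in cecal tumors and 601.4, 518.7 and 412.6 in duodenal tumors. Its groups lay well apart (1.85-fold, log2 difference 0.89 with a standard error of 0.16, adjusted p = 0.0122). It missed the threshold when cecal tumor 1 was left out (0.0587) and on male arrays alone (0.0571). A second Irf8 probe set, at 356.8, 324.6 and 358.4 in cecal tumors and 277.8, 228.3 and 301 in duodenal tumors, also did not overlap, but its log2 fold of 0.35 did not pass (adjusted p = 0.202). Irf1, an early target of interferon gamma, had 1555.1, 1144 and 1360.7 in cecal tumors and 861, 710.3 and 733 in duodenal tumors. It was 1.74-fold higher in cecal tumors (log2 difference 0.80 with a standard error of 0.15, adjusted p = 0.0148). Leaving out cecal tumor 1 (0.0605) or duodenal tumor 3 (0.0574) took it past the threshold.

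The other IRF genes did not pass. Irf9, a DNA-binding partner of Stat2, had 246.4, 251.7 and 202.7 in cecal tumors and 327.5, 261.6 and 223.8 in duodenal tumors (log2 fold -0.19, adjusted p = 0.586). Irf3, the constitutively present factor activated by nucleic acid sensors, had log2 folds of 0.00, -0.06 and -0.33 on its 3 tested probe sets. Irf2, which competes with Irf1 for its sites, had a log2 fold of 0.32 (adjusted p = 0.355), and Irf4 stayed under the percentile on all arrays. Irf2bp1, a corepressor that binds Irf2 and entered by its symbol, had a log2 fold of -0.16 (adjusted p = 0.619).

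**Figure D2:**
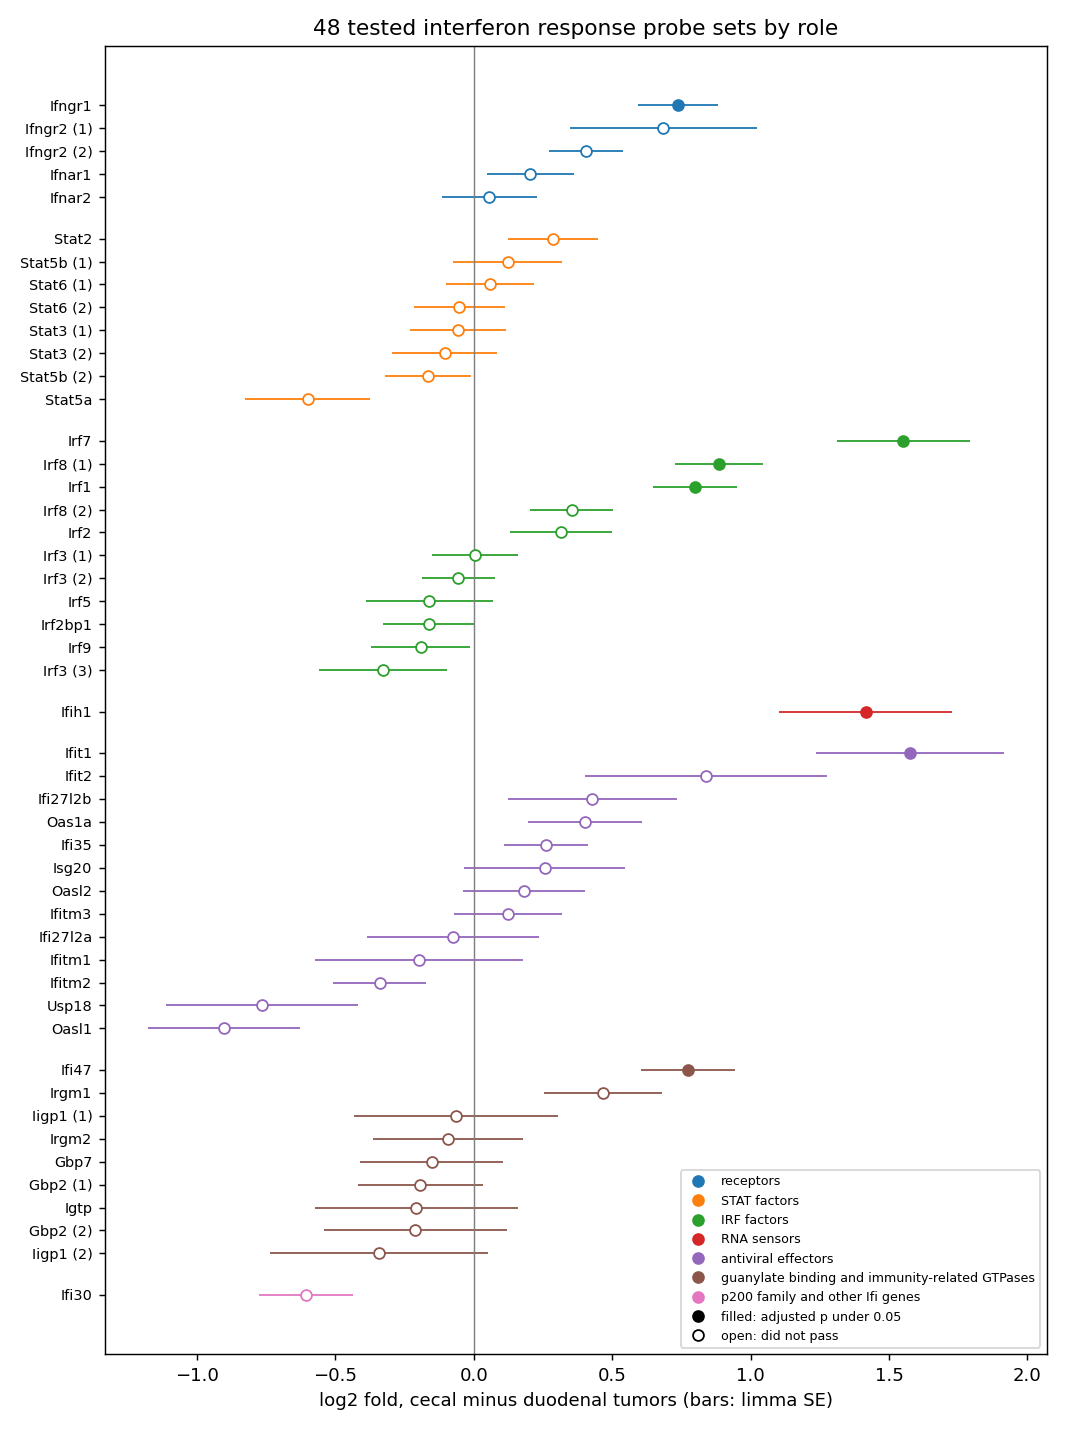
Log2 fold, cecal minus duodenal tumors, with the limma standard error, for the 48 tested interferon response probe sets grouped by role; numbers in parentheses separate probe sets of the same gene. The 7 filled points, all to the right of 0, are those that passed, and no point to the left of 0 is filled. The Ifit1 point is the fitted fold, for which the text gives only a bound.

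Of the RNA sensors, Ifih1 (MDA5, a receptor for long double-stranded RNA) was bright enough to be tested. It had 1112.9, 520.6 and 809.5 in cecal tumors and 364.3, 188.7 and 322 in duodenal tumors. Tumor 2, from a female mouse at both sites, was the lowest of its site each time, and the groups did not overlap. The difference was 2.67-fold (log2 difference 1.42 with a standard error of 0.31, adjusted p = 0.0267), with an adjusted p of 0.00124 when the replicate number was a block and 0.013 with male arrays alone. It was lost without cecal tumor 1 (adjusted p = 0.103), cecal tumor 3 (0.0675), duodenal tumor 2 (0.0591) or duodenal tumor 3 (0.0625). All 3 probe sets of Dhx58 (LGP2, a regulator of the same sensor) stayed at or below 56.8.

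The antiviral effectors, the largest role group, had 13 tested probe sets of 13 genes, a median log2 fold of 0.18 and 1 call. Ifit1, which binds viral RNA that lacks a host cap, had 171.9, 128.3 and 172.3 in cecal tumors and 65.6, 54 and 17.8 in duodenal tumors. As all duodenal values were under the 40th percentile, only a bound can be given: cecal intensity was at least 1.555-fold higher. The test was made on the values without this bound (limma log2 difference 1.575 with a standard error of 0.34, adjusted p = 0.0245). A probe set that is dim at a whole site enters the test only if it is bright in all 3 tumors of the other, so the direction of this call largely follows from the filter. Without any single cecal tumor Ifit1 was no longer tested, and with male arrays alone its adjusted p was 0.0621. Its neighbours in function behaved unevenly. Ifit2 had 281.8, 221.4 and 243.3 in cecal tumors and 151.9, 260.8 and 53.1 in duodenal tumors, where duodenal tumor 2 reached into the cecal range (log2 difference 0.84 with a standard error of 0.44, adjusted p = 0.3). Ifit3 had 142, 75.1 and 122.7 in cecal tumors and 53.1, 68.3 and 43.6 in duodenal tumors, and was too dim to be tested.

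Other effectors had folds of both signs. Oasl1, an Oas-like protein that restrains Irf7 translation in mice, had 583.7, 416.6 and 264.4 in cecal tumors and 844, 608.7 and 869.8 in duodenal tumors. Its groups did not overlap, with the cecal tumors lower, but the log2 fold of -0.90 ± 0.27 (SE) did not pass (limma adjusted p = 0.0832; 0.0551 under the block). Oas1a, a synthetase of the second messenger that activates RNase L, had 738.9, 556.8 and 552.3 in cecal tumors and 612, 400.4 and 391.1 in duodenal tumors (log2 fold 0.40, adjusted p = 0.291). At both sites tumor 1 was the highest. Usp18, which removes Isg15 from proteins and dampens type I receptor signaling, had 84.4, 112.2 and 100.3 in cecal tumors and 93.3, 287.8 and 205.3 in duodenal tumors. It overlapped through duodenal tumor 1 (log2 difference -0.77 with a standard error of 0.35, adjusted p = 0.234). Ifitm3, a membrane protein that blocks viral entry, had 4878, 7972.2 and 7397.8 in cecal tumors and 5333.5, 5874.8 and 7118.2 in duodenal tumors (log2 fold 0.12, adjusted p = 0.765), and the sites overlapped. Mx1, Mx2, Oas1b, Oas2 and all 3 probe sets of Ifi44l stayed under the percentile on all arrays.

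**Figure D3:**
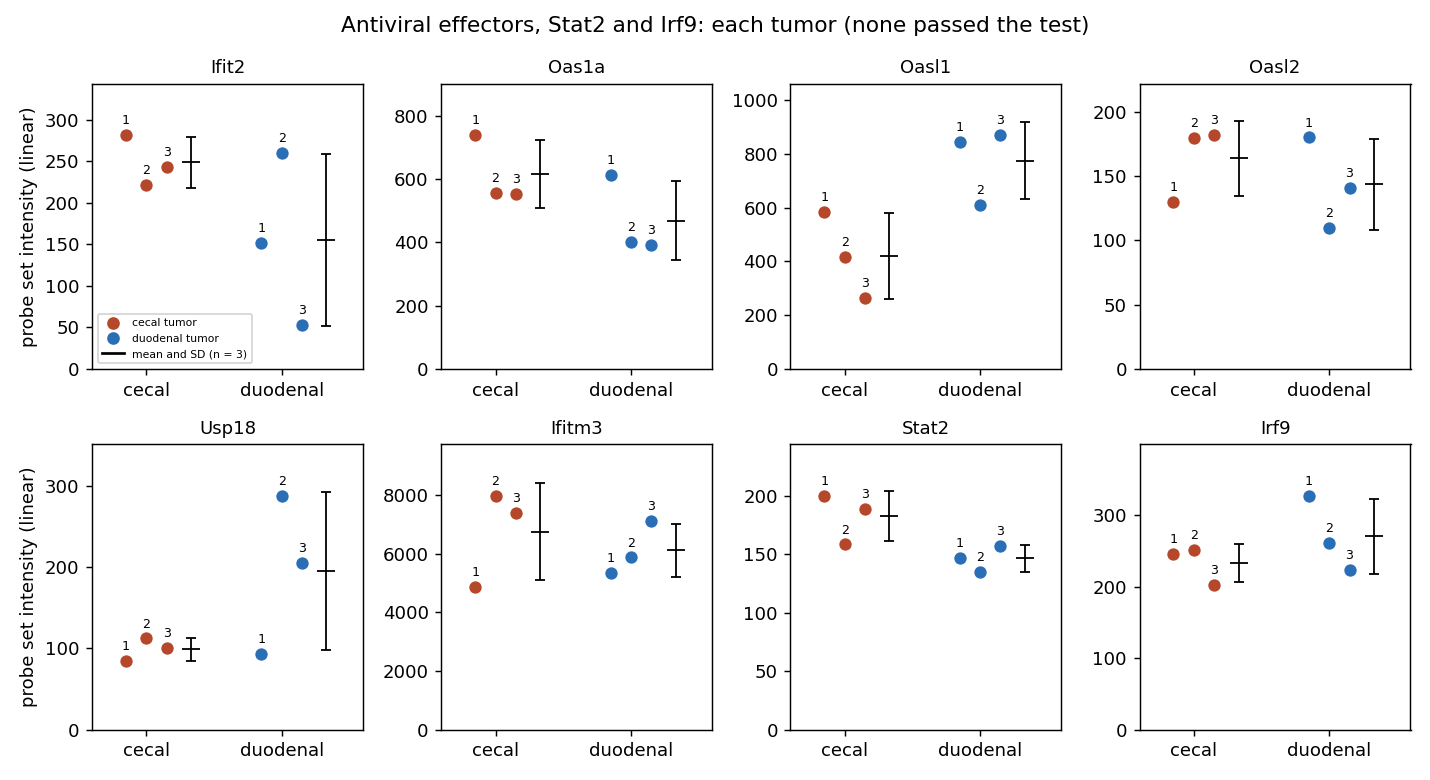
Linear probe set intensity of 6 antiviral effectors and of Stat2 and Irf9 in each cecal and duodenal tumor, numbered by replicate, with the mean and SD of 3 tumors beside the points. None of these 8 passed the test; Oasl1 is lower in all cecal tumors than in any duodenal tumor, Stat2 higher by a narrow margin, and the other 6 overlap.

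The interferon-induced GTPases, which act against vacuolar pathogens, had 9 tested probe sets of 7 genes, a median log2 fold of -0.15 and 1 call. Ifi47 (IRG-47) had 365.8, 281.5 and 343.4 in cecal tumors and 158.5, 190.7 and 210.8 in duodenal tumors. The groups did not overlap (1.71-fold, log2 difference 0.77 with a standard error of 0.17, adjusted p = 0.026). This was the least stable of the 7 calls: it was lost without any single array but duodenal tumor 3 (adjusted p = 0.0511 to 0.104) and with male arrays alone (0.0724). Irgm1, a regulatory member of the same family, had 361.4, 239.9 and 290.3 in cecal tumors and 189.1, 270.2 and 175 in duodenal tumors, overlapping through duodenal tumor 2 (log2 fold 0.47, adjusted p = 0.235). Igtp, Iigp1, Irgm2, Gbp2 and Gbp7 had log2 folds from -0.34 to -0.06 and none passed.

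Of the p200 family and other Ifi genes, Ifi30 was tested; the 4 other probe sets, of Ifi202b, Ifi204 and Ifi209, were under the percentile on all arrays. Ifi30 (GILT, a thiol reductase of antigen-presenting cells that unfolds proteins in lysosomes) had 2506.6, 1878.9 and 1789.6 in cecal tumors and 3572.4, 2614.5 and 3210.7 in duodenal tumors. It was lower in all cecal tumors, but did not pass without the block (log2 difference -0.61 with a standard error of 0.17, adjusted p = 0.0654). It fell with the replicate number as a block (adjusted p = 0.0195) and with sex as a covariate (0.0493).

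Promoter sequences are shown so that the response elements of called and uncalled genes can be read beside their values. RefSeq promoters of build GRCm38.p6 (300 bases, 250 before and 50 after a gene's start) were found for 49 of the 62 genes. The ISRE was searched as GAAANNGAAA and the GAS as TTCNNNGAA, each on both strands. They occurred in 3.44% and 8.3% of all 32851 promoters. Among member genes, 19 of 49 held an ISRE match and 16 a GAS match. Members were counted by gene, with a match in any of its promoters (61 promoters for the 49 genes). The shares over all promoters are by promoter, so the 2 are in unlike units. Of the 7 called genes 2 held an ISRE match (Ifih1, Ifit1) and 2 a GAS match (Irf1, Irf8), and of the 28 tested genes that did not pass 10 held an ISRE match and 12 a GAS match. A match is a description of letters and no shown binding site. The 250 bases before the start are printed for Irf7 and for the called genes with a match in them, with matches in capitals; Irf7 has none of these letters in the window.
Irf7, chr7:141266425-141266674 (minus strand): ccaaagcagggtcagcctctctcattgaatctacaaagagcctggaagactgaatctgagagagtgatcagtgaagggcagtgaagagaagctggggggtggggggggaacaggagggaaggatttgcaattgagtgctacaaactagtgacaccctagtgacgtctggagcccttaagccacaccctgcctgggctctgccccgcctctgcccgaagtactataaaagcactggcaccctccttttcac
Irf1, chr11:53769764-53770013 (plus strand): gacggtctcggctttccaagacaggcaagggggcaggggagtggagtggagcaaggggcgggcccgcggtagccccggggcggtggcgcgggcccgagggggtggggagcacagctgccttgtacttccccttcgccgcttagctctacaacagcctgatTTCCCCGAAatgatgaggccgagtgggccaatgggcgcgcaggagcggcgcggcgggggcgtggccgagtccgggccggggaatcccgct
Irf8, chr8:120736108-120736357 (plus strand): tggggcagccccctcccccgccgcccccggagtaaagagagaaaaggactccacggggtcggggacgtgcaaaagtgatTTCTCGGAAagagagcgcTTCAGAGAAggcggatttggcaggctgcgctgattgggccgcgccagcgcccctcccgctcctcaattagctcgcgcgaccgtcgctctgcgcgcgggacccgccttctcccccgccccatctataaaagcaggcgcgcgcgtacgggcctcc
Ifit1, chr19:34640639-34640888 (plus strand): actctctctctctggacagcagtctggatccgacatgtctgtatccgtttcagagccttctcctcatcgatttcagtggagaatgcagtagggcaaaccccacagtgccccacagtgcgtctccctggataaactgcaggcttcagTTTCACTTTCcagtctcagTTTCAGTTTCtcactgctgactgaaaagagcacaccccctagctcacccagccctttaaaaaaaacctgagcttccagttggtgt
The first bases of the Ifit1 matches lie 104 and 85 bases before the start, those of the Irf8 matches 171 and 153 bases before it, and that of the Irf1 match 90 bases before it. ISRE matches are also shown, as 30-base stretches, for Ifih1, which was higher in cecal tumors, and for 5 of the 10 tested genes with a match that did not pass (Oas1a, Irgm1, Gbp2, Stat2 and Ifitm3), chosen after their values were seen as examples from several families. Capitals mark GAAANNGAAA or its reverse complement; in Oas1a and Irgm1 a pair of matches overlap.
Ifih1, chr2:62646206-62646235 (minus strand): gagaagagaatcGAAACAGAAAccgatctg
Oas1a, chr5:120907523-120907552 (minus strand): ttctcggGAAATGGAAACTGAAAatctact
Irgm1, chr11:48871428-48871457 (minus strand): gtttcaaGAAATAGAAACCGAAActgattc
Gbp2, chr3:142620594-142620623 (plus strand): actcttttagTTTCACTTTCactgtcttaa
Stat2, chr10:128270266-128270295 (plus strand): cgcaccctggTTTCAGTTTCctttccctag
Ifitm3, chr7:141010714-141010743 (minus strand): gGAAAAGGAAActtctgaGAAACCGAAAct
The Ifih1 match begins at base 33 of the transcribed strand, past the start, and the Gbp2 match 59 bases before it. The Ifit1 and Gbp2 promoters share the letters TTTCACTTTC, while Ifit1 was called higher and Gbp2 had a log2 fold of -0.19 (adjusted p = 0.669).

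Genes of the pathway outside the members were taken from a list of 81, of which 65 were on the array and 42 tested. In cecal tumors 3 of the 42 rose and 1 fell, with a median log2 fold of 0.02; over all 8129 tested genes, 5.7% were higher and 4.75% lower. Ptpn6 (SHP-1, a phosphatase that dampens JAK-STAT signaling) had 621.3, 570.8 and 592.3 in cecal tumors and 288.7, 300.3 and 296.2 in duodenal tumors (log2 difference 0.97 with a standard error of 0.12, adjusted p = 0.00234). Il10rb, a receptor chain shared by interleukin 10 and the lambda interferons that act on epithelium, had 1916, 1596.5 and 1692.3 in cecal tumors and 1199.7, 1049.3 and 1133.1 in duodenal tumors (log2 difference 0.61 with a standard error of 0.12, adjusted p = 0.0191). In both genes the tumors of a site lay close together and apart from the other site. A second Ptpn6 probe set overlapped between the sites (log2 fold 0.53, adjusted p = 0.391). Il10rb kept its call in only 1 of the fits that left out an array, that without cecal tumor 3, and lost it on male arrays alone.

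Tlr3, the endosomal sensor of double-stranded RNA, rose by a log2 difference of 0.59, with a standard error of 0.14 (limma adjusted p = 0.0403; 0.0552 under the block). Lgals9, galectin-9, a lectin inducible by interferon gamma, fell in cecal tumors: it had 2607.5, 2880.2 and 3489.5 there and 6047, 5771 and 5879 in duodenal tumors (log2 difference -0.99 with a standard error of 0.13, adjusted p = 0.00254). Tlr3 was also not called without any single array, on male arrays alone, with sex as a covariate, with no filter, above the 60th percentile or with probe sets averaged by gene, and a second Tlr3 probe set did not pass (log2 fold 0.42, adjusted p = 0.225). The calls of Ptpn6 and Lgals9 held without any single array and with male arrays alone. Jak1, Jak2 and Tyk2, the receptor kinases, had log2 folds of -0.25, 0.11 and 0.24, and none passed. The interferon genes themselves, Ifnb1, Ifng and 7 Ifna genes, were under the percentile on all arrays, as were the interferon-induced chemokines Cxcl9, Cxcl10 and Cxcl11.

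Several members are made by immune cells as well as epithelium, so markers of those cells were read beside them. Of 13 macrophage and monocyte markers, all tested, 1 was higher in cecal tumors, Ctss (log2 difference 0.68 with a standard error of 0.13, adjusted p = 0.0166), and 0 were lower. For scale with this and the other marker lists, 5.7% of all 8129 tested genes were higher and 4.75% lower. Their summed intensity was 14760 to 16580 in cecal and 11520 to 13480 in duodenal tumors. Much of this sum came from the brightest markers, Lyz2 (3609 to 6103.6 over the 6 tumors) and Ctss (1927.1 to 3889.4). Csf1r, the growth factor receptor of macrophages, had 1301.5, 1075.7 and 1086.3 in cecal tumors and 1030.5, 1212.1 and 1027.8 in duodenal tumors (log2 fold 0.08, adjusted p = 0.78). Cd14, Lyz2 and Mrc1 were higher in all cecal tumors than in any duodenal tumor (log2 folds 0.40, 0.33 and 0.42). They did not pass (limma adjusted p = 0.145, 0.213 and 0.184). Cd68 was lower in all cecal tumors (log2 fold -0.14, limma adjusted p = 0.578). Such separation was seen in 13.8% of all tested probe sets with the cecal tumors higher and in 15.7% with them lower. Of 14 T and NK cell markers, 9 were under the percentile on all arrays, among them Cd3d, Cd3g, Cd4 and Cd8a, and the sum was 573.1 to 879.9 in cecal and 472 to 629 in duodenal tumors. Of 12 fibroblast and smooth muscle markers, all tested, 1 was higher, Col3a1 (log2 difference 0.73 with a standard error of 0.15, adjusted p = 0.0173), and 0 were lower; their sum was 21930 to 26850 in cecal and 16380 to 21740 in duodenal tumors, with no overlap. The block added Col1a1 (adjusted p = 0.0101, against 0.0736 without it). Of 9 epithelial markers 2 were higher (Cldn7 and Vil1), with sums of 74330 to 77550 in cecal and 61450 to 69780 in duodenal tumors, and the block added Krt20 (adjusted p = 0.0067, against 0.0767 without it). Neutrophil markers summed to 337.1 to 1736 in cecal and 207.2 to 496.2 in duodenal tumors, and 6 of the 8 were under the percentile on all arrays. Sums for B and plasma cells were 7604 to 13080 in cecal and 6088 to 13700 in duodenal tumors, with 5 of 9 markers under the percentile on all arrays. Plasmacytoid dendritic cell markers summed to 3566 to 5288 in cecal and 2543 to 4962 in duodenal tumors. Klk1 (1280 to 4541.6 over the 6 tumors) made up most of that sum, and Tcf4 much of the rest. Il3ra and Ccr9 were under the percentile on all arrays, so the sum is no measure of these cells. Endothelial markers summed to 989.7 to 1216 in cecal and 988.8 to 1342 in duodenal tumors. Of the 14 tested markers of these 4 cell types and of T and NK cells, 0 passed (limma). At an unadjusted p under 0.05, 1 was higher (Vwf) and 2 lower (Tcf4 and Esam), against 11.5% and 11.8% of all tested probe sets. The part of any of these in the member calls was not tested.

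**Figure D4:**
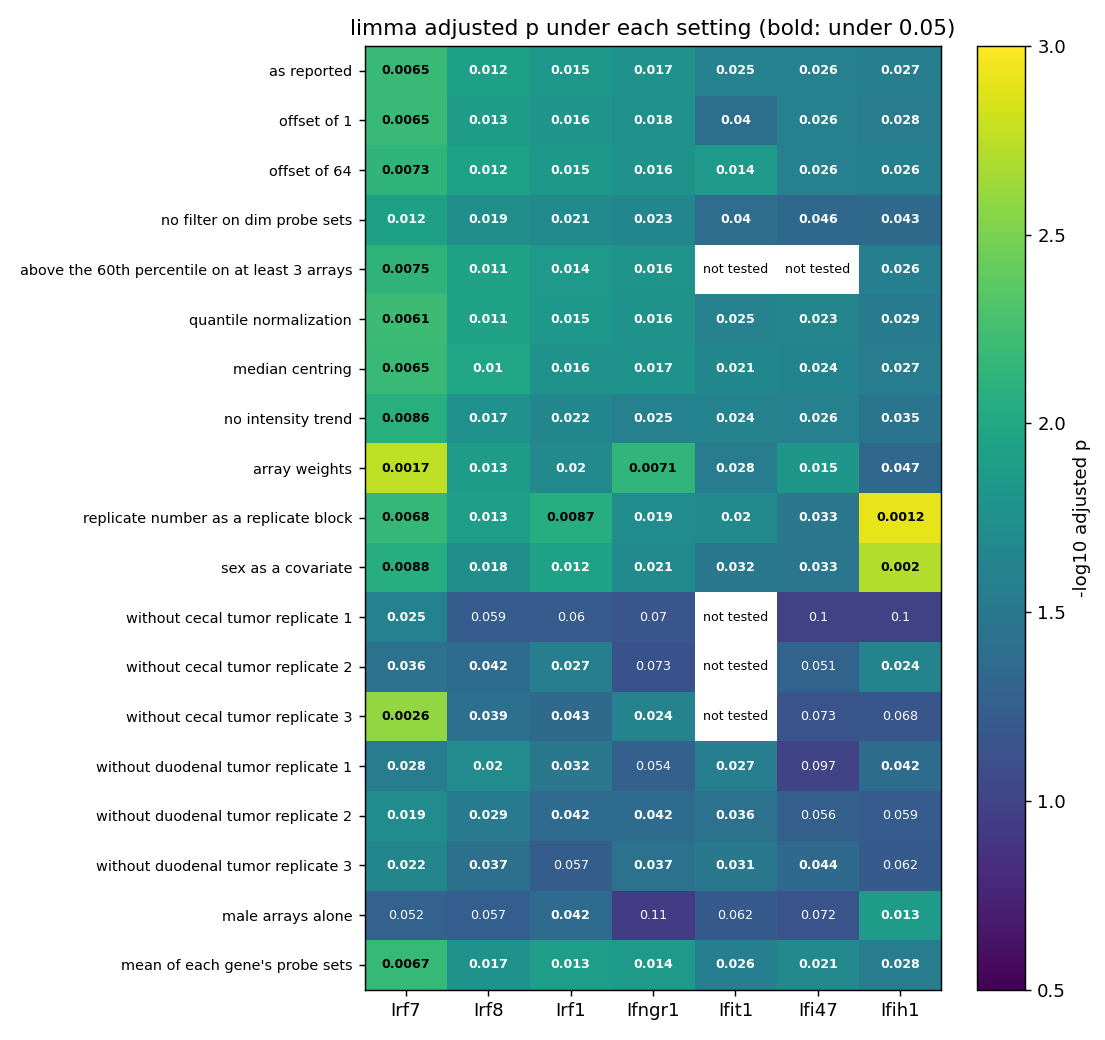
limma adjusted p of the 7 called probe sets (columns) under each processing setting (rows), shaded by -log10 of the adjusted p, with values under 0.05 in bold and white cells where the probe set was not tested. Irf7 stays under 0.05 in every row but male arrays alone, where it is 0.052, while most values of the other genes above 0.05 lie in the rows that leave out an array.

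The member levels were also summed up by tumor. Over the 48 tested members, the median deviation from each probe set's mean over the 6 arrays was 0.09, 0.02 and 0.11 on the log2 scale in cecal tumors 1 to 3, and 0.03, -0.09 and -0.16 in duodenal tumors 1 to 3. Over all tested probe sets the same medians ran from -0.04 to 0.04. The cecal tumor was higher than the duodenal tumor of the same number in each of the 3 numbers, while across numbers duodenal tumor 1 lay above cecal tumor 2. These medians are a description with no test.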

How the data were processed

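RNA of 6 tumors was hybridised to 1 Affymetrix array each. Linear intensity values were deposited; the authors made them with MAS5 per the submitters' processing notes, and version and scaling target were not given in the sources used here. Each array's mean between its 2nd and 98th percentiles was 500.2. Probe sets were named by the platform annotation: 20380 named 1 gene, 691 several and 1555 none, and 64 controls were left out. Members were the probe sets with 1 gene name matching the symbol rule; members and lists were chosen with earlier results of these data known. Groups and replicate numbers come from the titles.

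Values were taken as log2(intensity + 16), which understates folds of dim genes, and fitted for all 13866 tested probe sets (limma 3.58.1, lmFit and trended eBayes, two-sided, under R 4.3.3). Benjamini-Hochberg adjusted p-values over all of them were called under 0.05. Every fold is cecal minus duodenal. A gene of the other lists was represented by its brightest tested probe set. Where all tumors of a site were under the 40th percentile, the fold is a bound: the bright site's mean log2 intensity over the dim site's mean of percentile level or own value, whichever was higher. Named members were those that passed and, in each role group, the brightest and the one with the smallest p; other members are named after their values were seen.

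The correlation of deviations from the site means was 0.274, 0.299 and 0.203 for same-numbered tumors and -0.2 to -0.026 otherwise. From the data alone, same-numbered tumors were thus more alike, but the labels state no pairing and the reported test uses none. Tumor 2 of both sites was from a female mouse, so sex may be part of this. Whether same-numbered tumors came from the same mouse was not tested. The block was an alternative, as were the offset, filter, normalization, trend, weights, sex, probe set averaging and leaving out each array. The procedure was tested on simulated data. Figures were drawn with matplotlib 3.10.9. The number of arrays limits the precision.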

Additional observations from a re-analysis of the deposited data

How the results depend on the processing

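The 7 calls higher in cecal tumors were the same genes with an offset of 1 or 64, with no filter, quantile normalization, median centring, no intensity trend, sex as a covariate, the replicate block and probe sets averaged by gene, and all 7 with Ifngr2 under array weights. Above the 60th percentile 5 remained, as Ifit1 and Ifi47 were not tested. Leaving out 1 array gave 1 to 5 calls higher and 0 to 1 lower, and male arrays alone, chosen after the data were seen, gave 2 higher; fewer arrays entered these fits. Calls lower in cecal tumors, 0 as reported, were 2 with array weights (Ifi30, Oasl1), 1 with the replicate block (Ifi30) and 1 with sex as a covariate (Ifi30); the cause was not tested. Without duodenal tumor 1 the lower call was Usp18, and without duodenal tumor 2 Ifi30. Of the pathway genes outside the members, leaving out 1 array gave 1 to 2 higher and 1 lower, male arrays alone 1 higher, and no filter 2 lower (Lgals9, Ifna11). The block called 4 pathway genes higher, with Parp9 and Psmb10 added and Tlr3 lost; beyond these and Ifi30 it changed no call of a member or pathway gene. Among the named members, the only ones followed for direction, it turned for 2 probe sets that passed nowhere. Leaving out 1 array gave Stat3 log2 folds from -0.191 to 0.09 (above 0 without cecal tumor 1 and duodenal tumor 3) and Ifitm3 from -0.014 to 0.34 (below 0 without cecal tumor 2), and male arrays alone gave Ifitm3 -0.036. Signal near the 40th percentile limits what can be said of the 38 untested probe sets.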
